A study of Homo sapiens with 6 samples.

Results

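Receptor tyrosine kinases were examined by RNA-seq in A2780, a human ovarian carcinoma cell line, and in a clone of it made by CRISPR/Cas9 editing of CDK12. The members were 46 genes for receptors of the EGF, PDGF, VEGF, FGF, HGF, neurotrophin, discoidin, ROR, angiopoietin and Eph families and single receptors such as RET, ALK and ROS1, out of 60483 Ensembl genes in the count table. They were listed by gene symbol, with earlier results of these data known, and the TAM, IGF1 and insulin receptors were left out. All 46 were found. The filter on low counts kept 29 of the 46 members and 16198 of all genes.

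The A2780 WT group was the unedited parental line (3 libraries) and the A2780 CDK12 KO group was the edited line (3 libraries), with no drug given to either. CDK12 is a kinase that phosphorylates RNA polymerase II. The KO line was 1 clone, reached through a second transfection of a heterozygous clone with a plasmid against exon 1, and the study's authors describe a raised DNA content in it. The effects of the edit, of the clonal origin and of the DNA content cannot be told apart here. Nothing in the labels says that the libraries of a group came from separate cultures, so the p-values measure only the spread between these libraries.

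Receptor tyrosine kinases span the cell membrane. An extracellular ligand brings receptor chains together, the intracellular kinase domains phosphorylate each other, and adaptor proteins bind the phosphorylated tyrosines and start the RAS, PI3K and phospholipase C gamma pathways. Ubiquitin ligases, phosphatases and feedback inhibitors end the signal. In ovarian carcinoma the EGF, PDGF, VEGF and FGF receptors are known as drug targets. A few of the members, such as ERBB3, PTK7, RYK, ROR1, EPHB6 and STYK1, have kinase domains with weak or no activity.

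Total counts ranged from 11098400 to 30899045 per library, and 3 counts corresponded to at most 0.270 CPM (counts scaled to library size with edgeR's TMM factors). Such floors cover counting error only. The targeted gene CDK12 was at 115 ± 11.1 CPM in WT and 98.0 ± 4.64 CPM in KO cells (SD, n = 3), lower in each KO library than in every WT library, with a log2 fold change of −0.23. A count over the whole gene does not check an edit in exon 1. Of the epithelial markers, KRT18, KRT8, EPCAM and CLDN4 were counted, but CDH1, KRT7 and CLDN3 had at most 4 counts in any library. The summed epithelial markers reached 69.2 to 74.6 CPM in WT and 116 to 121 CPM in KO cells. KRT18 made up most of this sum (59.9 and 103 CPM on average), and EPCAM was lower in KO cells (3.19 and 2.17 CPM). The fibroblast list, which A2780 cells also express, summed to 11167 to 11538 CPM in WT and 8660 to 8937 CPM in KO cells. Of its 7 tested genes 4 were down-regulated, when 7.73% of all tested genes were. Some of the 7, such as POSTN, passed the low-count filter through the WT libraries only, so for them being tested already required a difference. Of the 8 endothelial markers, PECAM1 and CDH5 had at most 2 counts in any library, but EGFL7 and ERG were at 17.4 and 4.70 CPM in WT. VWF rose (2, 7 and 3 counts in WT, 18, 22 and 10 in KO cells), CLDN5 fell (11, 18 and 9 counts in WT, 0 in each KO library), and the list summed to 22.1 to 25.8 CPM in WT and 17.6 to 21.1 CPM in KO cells.

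Across the members, more receptors were down-regulated than up-regulated in KO cells. Genes were called with an adjusted p under 0.05 from edgeR's quasi-likelihood test (Benjamini-Hochberg over all tested genes) and a change of more than 1 on the log2 scale in either direction. Of the 29 tested members, 8 were down-regulated: ERBB4, PDGFRA, PDGFRB, FLT1, RET, ROR1, EPHA2 and EPHA7. The share was 27.6%, and 7.73% of all tested genes were down-regulated. EPHA1 and EPHB1 were up-regulated, 6.90% of the tested members, and 8.30% of all tested genes were up-regulated. The remaining 19 tested members did not pass both thresholds.

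ERBB4, EPHA7 and EPHB1 passed the low-count filter through the levels of 1 group only, so that for them being tested already required a difference. NTRK2 and STYK1 also passed through 1 group. Among the 24 members with at least 10 counts in every library, which leaves these genes out, 6 were down-regulated and 1 was up-regulated. For all 13405 genes with such counts the shares were 5.10% down-regulated and 4.24% up-regulated. By the adjusted p alone, 15 members were lower and 5 were higher in KO cells, when 32.0% of all tested genes were lower and 31.9% higher. The 3 WT and the 3 KO libraries did not overlap, with KO lower, for 16 members (33.5% of all tested genes) and with KO higher for 6 members (32.8% of all tested genes). The median log2 fold change of the 29 tested members was −0.37, and that of all tested genes was 0.000443.

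**Figure D1:**
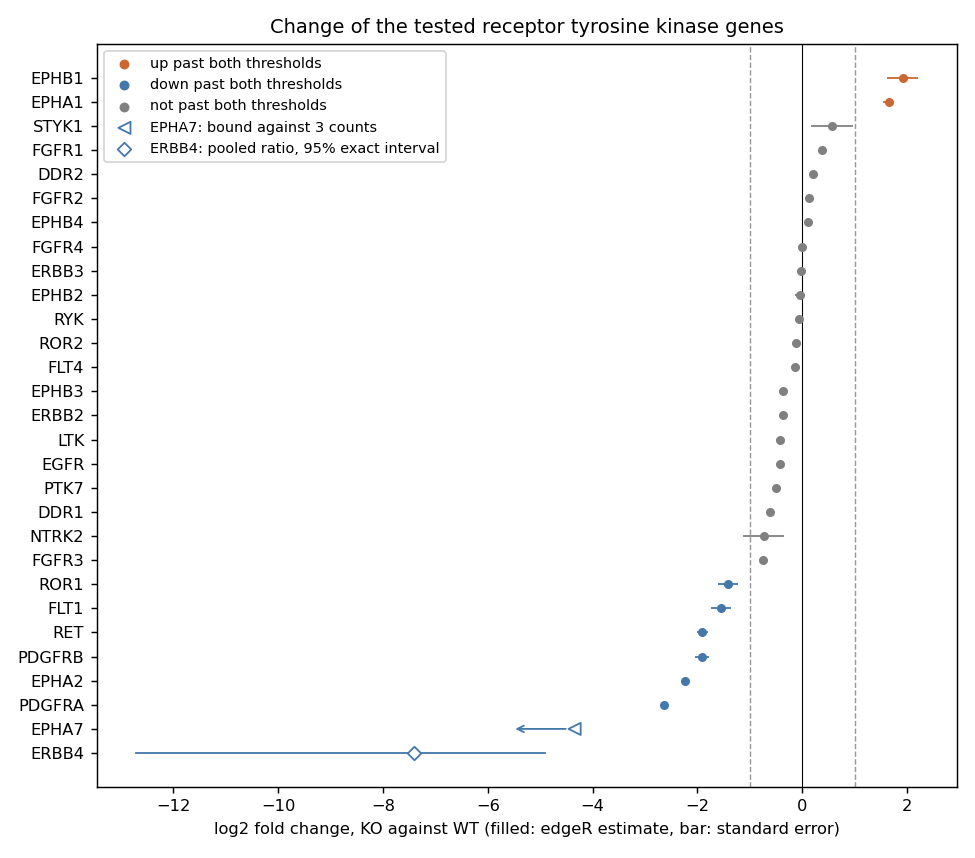
Log2 fold change (KO against WT, x axis) of each of the 29 tested receptor tyrosine kinases, with filled points for the edgeR estimate, bars for its standard error and dashed lines at −1 and 1. In place of an estimate, EPHA7 is drawn as an open triangle at its bound against 3 counts and ERBB4 as an open diamond at its pooled count ratio with the 95% exact interval, and 8 members lie below −1 and 2 above 1.

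The promoters of 4 members are shown because these genes were counted almost in 1 group only (ERBB4, EPHA7) or were the 2 receptors past both thresholds with a higher level in KO cells (EPHA1, EPHB1). They are RefSeq sequences of GRCh38.p14 and cover the 250 bases before the start used by RefSeq, read along the gene's own strand. ERBB4 lies at chr2:212538803-212539052 and EPHA7 at chr6:93419560-93419809, both on the minus strand. EPHA1 lies at chr7:143408857-143409106 on the minus strand and EPHB1 at chr3:134795010-134795259 on the plus strand. Capitals mark GC boxes, the letters GGGCGG or their reverse complement CCGCCC, which zinc finger factors of the SP family can bind.
ERBB4: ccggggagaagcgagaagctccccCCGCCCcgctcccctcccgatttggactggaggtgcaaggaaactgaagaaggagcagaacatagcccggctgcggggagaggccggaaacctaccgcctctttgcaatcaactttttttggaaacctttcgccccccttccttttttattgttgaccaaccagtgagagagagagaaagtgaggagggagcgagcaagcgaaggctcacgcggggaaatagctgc
EPHA7: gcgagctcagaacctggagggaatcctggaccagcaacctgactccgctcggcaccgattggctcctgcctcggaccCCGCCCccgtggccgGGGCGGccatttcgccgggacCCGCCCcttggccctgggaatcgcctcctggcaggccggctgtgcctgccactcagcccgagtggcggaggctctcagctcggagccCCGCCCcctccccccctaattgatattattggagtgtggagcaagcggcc
EPHA1: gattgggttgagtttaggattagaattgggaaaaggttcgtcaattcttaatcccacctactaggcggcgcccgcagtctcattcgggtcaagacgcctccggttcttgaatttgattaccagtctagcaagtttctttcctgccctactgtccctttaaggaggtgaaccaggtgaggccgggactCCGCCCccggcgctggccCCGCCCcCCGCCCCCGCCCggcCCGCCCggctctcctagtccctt
EPHB1: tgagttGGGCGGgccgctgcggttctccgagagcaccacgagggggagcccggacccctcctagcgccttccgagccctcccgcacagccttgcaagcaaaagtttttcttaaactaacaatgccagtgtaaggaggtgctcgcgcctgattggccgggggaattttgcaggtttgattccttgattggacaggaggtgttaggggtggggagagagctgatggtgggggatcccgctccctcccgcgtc

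The windows held 1 GC box in ERBB4, 4 in EPHA7, 5 in EPHA1 and 1 in EPHB1, so receptors with opposite changes both carried them. A match is a description of the letters and not of binding. RefSeq windows were matched for 41 of the 46 members, and 70.7% of these held a GC box against 42.6% of all 35116 promoters of the same length. Each member entered with 1 window, at the listed start nearest the annotated one. The 35116 promoters include every listed start, with several for some genes, so the units differ. Among the down-regulated members 6 of 8 held a GC box, and both up-regulated members did. The TATA box letters TATAAA or their reverse complement TTTATA were present in 4.88% of the matched members and in 10.7% of all promoters. CG pairs had a median of 17 per window in the down-regulated members, 23 in the tested members, 14.5 in the members not tested and 11 in all promoters. The windows of ERBB4 and EPHA7 reach 39 and 128 bases into the annotated gene, because the RefSeq start used lies inside it, and RefSeq lists 3 starts for EPHA7.

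In the EGF receptor family, 1 of 4 members was down-regulated, when 7.73% of all tested genes were. This member, ERBB4, passed the low-count filter through the WT libraries only. ERBB4, which binds neuregulins, had 63, 79 and 25 counts in the WT libraries and 1, 0 and 0 counts in the KO libraries. It was thus present in every WT library and at the detection floor in KO cells. The WT to KO ratio of the pooled counts, scaled for depth, was 169 with a 95% exact interval of 29.9 to 6715, and the adjusted p was 3.79e-14 by edgeR's quasi-likelihood test. ERBB4 is at chr2:211375717-212538841 and is the longest of the called members. EGFR, the receptor of EGF and TGF alpha, was at 54.4, 62.8 and 61.2 CPM in WT and at 44.4, 43.9 and 44.4 CPM in KO cells. The ranges did not overlap, but the log2 fold change of −0.42 ± 0.06 (SE, adjusted p = 1.94e-07 by edgeR) did not reach the fold threshold. ERBB2, the partner receptor without a ligand of its own, had a KO minus WT log2 difference of −0.37 (adjusted p = 9.03e-08 by edgeR). ERBB3, the neuregulin receptor with a weak kinase, had a KO minus WT log2 difference of −0.02 (adjusted p = 0.873 by edgeR), and this sign depended on the scaling. The ERBB2 gene starts 120 kb beyond the end of CDK12 on chromosome 17. On the opposite strand, ERBB2 shares 571 exonic bases with MIEN1 (3670 counts over the 6 libraries, log2 fold change −0.06). It also shares 144 with PGAP3 on that strand (1975 counts, log2 fold change 0.33).

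Both PDGF receptors were down-regulated. PDGFRA, which binds all PDGF chains except PDGF-D dimers, was at 89.3, 91.7 and 91.2 CPM in WT and at 15.2, 13.1 and 16.0 CPM in KO cells. The mean levels were 90.7 ± 1.30 and 14.8 ± 1.51 CPM (SD, n = 3), with no overlap between the groups. The log2 fold change was −2.63 ± 0.07 (SE, adjusted p = 2.25e-26 by edgeR). PDGFRA is at chr4:54229280-54298245 on the plus strand. PDGFRB, the receptor of PDGF-B and PDGF-D, was at 7.66, 7.44 and 6.93 CPM in WT and at 1.99, 1.89 and 2.02 CPM in KO cells. Each KO library was below each WT library, and the log2 fold change was −1.92 ± 0.14 (SE, adjusted p = 9.53e-14 by edgeR). PDGFRB is at chr5:150113839-150155872 on the minus strand. The other genes of this family were hardly counted: KIT, the receptor of stem cell factor, had at most 4 counts, CSF1R at most 1 and FLT3 at most 3 counts in any library. Of the 7 tested fibroblast markers, 5 were lower and 1 was higher in KO cells by the adjusted p alone. Over all tested genes these shares were 32.0% and 31.9%. Some of the 7, such as POSTN, passed the low-count filter through the WT libraries only, so for them being tested already required a difference. COL1A1 fell by a log2 fold change of −2.37, whereas COL3A1 was at 6006 and 5960 CPM. POSTN was at 38.7 CPM on average in WT and below the floor of 3 counts in each KO library. The part of these markers in the PDGF receptor result was not tested. In bulk RNA, fewer cells with a transcript and less of it per cell cannot be told apart.

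Of the VEGF receptors, FLT1 was down-regulated, FLT4 was not, and KDR had at most 2 counts in a library. FLT1, which binds VEGF-A and placental growth factor, was at 2.74, 3.67 and 3.06 CPM in WT and at 1.14, 0.929 and 1.24 CPM in KO cells. All 3 KO libraries were below the lowest WT library. The log2 fold change was −1.55 ± 0.20 (SE, adjusted p = 4.12e-08 by edgeR). FLT1 is at chr13:28300346-28495145 on the minus strand. FLT4, the receptor of VEGF-C and VEGF-D, was at 27.2 CPM on average in WT and 24.5 CPM in KO cells, and its log2 fold change of −0.14 had an adjusted p of 0.0865 by edgeR.

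None of the 4 FGF receptors passed both thresholds, and 2 had opposite signs. FGFR1 was at 63.9, 68.0 and 63.8 CPM in WT and at 84.4, 86.0 and 85.7 CPM in KO cells. Every KO library was higher, with a log2 fold change of 0.38 (adjusted p = 8.81e-08 by edgeR). On the opposite strand, FGFR1 shares 138 exonic bases with LETM2 (511 counts over the 6 libraries, log2 fold change 0.66). FGFR3 was at 21.3, 20.8 and 22.2 CPM in WT and at 12.9, 13.8 and 10.9 CPM in KO cells. Here every KO library was lower, with a log2 fold change of −0.75 (adjusted p = 1.81e-09 by edgeR). FGFR2 had a KO minus WT log2 difference of 0.13 (adjusted p = 0.151 by edgeR). FGFR4 had one of −0.01 (adjusted p = 0.853 by edgeR), and its sign depended on the scaling. The 4 receptors share FGF ligands, which bind together with heparan sulfate.

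RET, the receptor that GDNF family ligands engage through GFRA proteins, was at 17.4, 17.5 and 15.8 CPM in WT and at 4.27, 4.53 and 4.94 CPM in KO cells. No KO library came near the lowest WT library. The log2 fold change was −1.91 ± 0.10 (SE, adjusted p = 1.94e-17 by edgeR), and the gene is at chr10:43077064-43130351 on the plus strand. ROR1, a receptor of Wnt ligands, was at 3.03, 4.64 and 4.50 CPM in WT and at 1.14, 1.71 and 1.63 CPM in KO cells. The groups did not overlap, and the log2 fold change was −1.42 ± 0.19 (SE, adjusted p = 1.40e-07 by edgeR). It was the 1 down-regulated member that did not pass when the test was run against the fold threshold itself. ROR1 is at chr1:63774017-64181498 on the plus strand. Its relative ROR2 had a KO minus WT log2 difference of −0.12 (adjusted p = 0.0799 by edgeR). The adjusted p of ROR2 by edgeR was 0.0344 without WT replicate 1 and 0.0356 after thinning to the smallest total.

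The collagen receptors moved apart. DDR2, which binds fibrillar collagen, was the most abundant member, at 492.5, 505.4 and 507.3 CPM in WT and at 594.2, 515.7 and 622.9 CPM in KO cells. Each KO library was above the WT libraries, though the KO libraries spread widely. The log2 fold change was 0.20 (adjusted p = 0.00148 by edgeR) and below the fold threshold. DDR1, the receptor of several collagens in epithelia, had a KO minus WT log2 difference of −0.62 (adjusted p = 2.61e-11 by edgeR). PTK7, a Wnt co-receptor without kinase activity, had one of −0.51 (adjusted p = 2.64e-10 by edgeR), and RYK, which also binds Wnt ligands, one of −0.07 (adjusted p = 0.244 by edgeR). LTK, a receptor of ALKAL proteins, had a KO minus WT log2 difference of −0.42 (adjusted p = 5.00e-05 by edgeR). NTRK2 and STYK1 had at most 19 counts in a library, and neither passed the test, with adjusted p of 0.103 and 0.226 by edgeR.

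The Eph receptors, which bind ephrins on neighbouring cells, held both up-regulated members. Of their 7 tested genes, 2 rose and 2 fell, and EPHB1 and EPHA7 among these passed the low-count filter through 1 group only. Of the 22 tested members outside the Eph families, 6 were down-regulated and 0 up-regulated, with 2 of these 22 higher by the adjusted p alone. Over all tested genes the shares were 8.30% up-regulated and 7.73% down-regulated. The difference between the families was not tested.

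EPHA2, a receptor of A-type ephrins with high levels in many carcinomas, was at 68.0, 71.8 and 70.5 CPM in WT and at 13.8, 15.7 and 15.4 CPM in KO cells. The KO libraries lay far below the WT libraries and close to each other. The log2 fold change was −2.23 ± 0.07 (SE, adjusted p = 1.84e-24 by edgeR). EPHA2 is at chr1:16124337-16156069 on the minus strand. EPHA7 had 85, 107 and 40 counts in the WT libraries and 0 counts in each KO library. With the KO floor set at 3 counts per library, EPHA7 was at least 20.3-fold lower in KO cells, and its adjusted p was 1.39e-15 by edgeR. EPHA7 is at chr6:93240020-93419687 on the minus strand. EPHA3 had 10, 8 and 4 counts in the WT libraries and 1, 0 and 0 counts in the KO libraries. EPHA3 did not pass the filter, and the WT to KO ratio of its pooled counts was 22.3 with a 95% exact interval of 3.60 to 919.

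EPHA1, a receptor of A-type ephrins, rose, with 3.98, 4.41 and 3.87 CPM in WT and 13.5, 13.2 and 12.1 CPM in KO cells. Every KO library was above every WT library. The log2 fold change was 1.65 ± 0.11 (SE, adjusted p = 7.43e-15 by edgeR). EPHA1 is at chr7:143390289-143408856 on the minus strand and shares 82 exonic bases with ZYX on the opposite strand, a gene with 21468 counts over the 6 libraries and a log2 fold change of 0.09. EPHB1, a receptor of B-type ephrins, had 10, 9 and 6 counts in the WT libraries and 38, 34 and 25 counts in the KO libraries. These were low counts, but the groups stayed apart after scaling for depth, with a log2 fold change of 1.92 ± 0.30 (SE, adjusted p = 1.11e-06 by edgeR). EPHB1 is at chr3:134795260-135260467 on the plus strand. A long noncoding RNA gene on the opposite strand lies within EPHB1, with 157 counts over the 6 libraries, no shared exonic base and a log2 fold change of −0.24. EPHB4, the partner of ephrin-B2, had a KO minus WT log2 difference of 0.12 (adjusted p = 0.0388 by edgeR). The adjusted p of EPHB4 was 0.0512 under DESeq2 and 0.0537 to 0.109 by edgeR without single libraries. EPHB4 shares 69 exonic bases with SLC12A9 on the opposite strand, a gene with 9875 counts over the 6 libraries and a log2 fold change of 0.91. EPHB3 had one of −0.37 (adjusted p = 2.04e-05 by edgeR). EPHB2 had one of −0.04 (adjusted p = 0.677 by edgeR), and its sign changed after thinning to equal depth and without WT replicate 2.

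**Figure D2:**
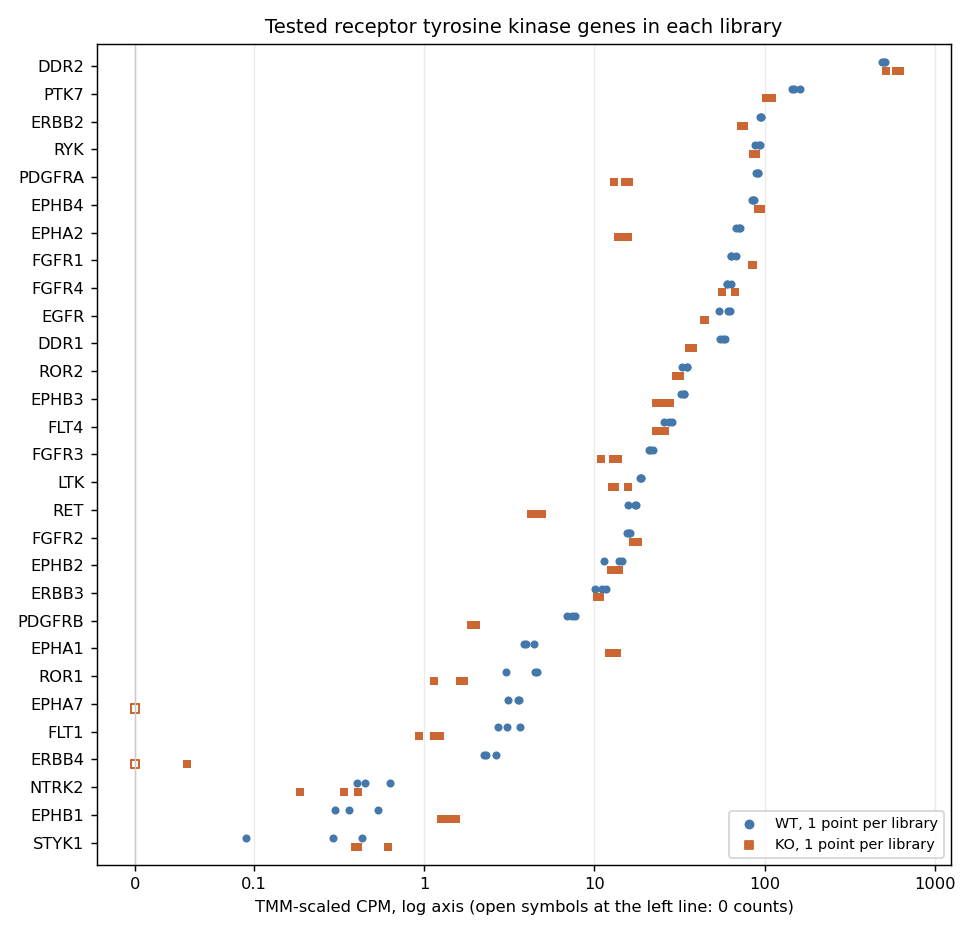
Level of the 29 tested receptor tyrosine kinases in each library, in TMM-scaled CPM on a log axis, with WT libraries as circles, KO libraries as squares and open symbols at the left line for 0 counts. Most rows hold WT and KO points close together, EPHA1 and EPHB1 lie to the right in KO cells, and the 8 down-regulated genes lie to the left, with EPHA7 at 0 in all 3 KO libraries.

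The 17 members that did not pass the filter had at most 10 counts in any library, and 13 of them had at most 3 counts in every library. They include MET, the HGF receptor, with 2, 1 and 0 counts in WT and 2, 0 and 0 counts in KO cells. MST1R, its relative, had 4, 8 and 4 counts in WT and 7, 8 and 8 counts in KO cells. TEK had 0 counts in each WT library and 3, 1 and 1 counts in the KO libraries, and ALK had 0 counts in WT and 0, 2 and 3 counts in KO cells. ROS1 had 0 counts in all 6 libraries. EPHB6 had at most 5 counts, EPHA5 at most 3 and INSRR at most 2 counts in a library, and TIE1, EPHA4, NTRK3 and MUSK had at most 1. With no filter on low counts, EPHA3 was down-regulated, and no other of these 17 genes was called at this depth.

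Levels per kb of exon were used to rank the receptors, with all annotated exons of a gene merged into its length. This length can exceed that of the transcripts made, so ranks and shares depend on the annotation. FGFR1 and FGFR4 were at 65.2 and 61.1 CPM in WT. With 17201 and 4810 exonic bases, they were at 3.79 and 12.7 CPM per kb. In WT cells DDR2 led with 45.2 ± 0.726 CPM per kb (SD, n = 3) and held 24.7% of the summed level of all members. EPHA2 and PTK7 followed, each at 16.9 CPM per kb, and their libraries overlapped. EPHB4 at 13.3 and FGFR4 at 12.7 CPM per kb also overlapped. RYK was next at 11.2, PDGFRA at 9.50 and ERBB2 at 9.25 CPM per kb. In KO cells DDR2 led again with 52.0 ± 5.00 CPM per kb and 33.9% of the sum, ahead of EPHB4 at 14.4 and FGFR4 at 12.5 CPM per kb. The libraries of FGFR4 and PTK7, at 11.9 CPM per kb, overlapped in KO cells. EPHA2 moved from rank 2 to rank 12, at 3.61 CPM per kb, and PDGFRA from rank 7 to rank 17. Their shares of the summed level went from 9.25% to 2.36% and from 5.19% to 1.01%.

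The ligands, co-receptors, adaptors and genes of receptor down-regulation were examined as lists of 128 genes, of which 83 were tested. In KO cells 11 of these rose (13.3%, with 8.30% of all tested genes) and 17 fell (20.5%, with 7.73% of all tested genes). EFNB2, PDGFB, ANGPT2, KITLG, GRB14 and NGFR were among the called genes that passed the low-count filter through the levels of 1 group only. For such genes being tested already required a difference. Of the 66 with at least 10 counts in every library, which leaves these genes out, 5 rose and 11 fell. For all 13405 genes with such counts the shares were 4.24% up-regulated and 5.10% down-regulated. The median log2 fold change of the 83 tested genes was −0.09. By group, 5 of 31 tested ligands rose and 7 fell, 1 of 8 co-receptors rose and 3 fell, 2 of 27 adaptors rose and 3 fell, and 3 of 17 genes of receptor down-regulation rose and 4 fell. These lists were chosen with earlier results of the same data known.

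Among ligands of receptors with a changed level, PDGFB and PDGFRB were both lower in KO cells. PDGFB had 288, 275 and 90 counts in the WT libraries and 1, 0 and 0 counts in the KO libraries. The pooled WT to KO ratio of PDGFB was 661 with a 95% exact interval of 118 to 26141. Of the other PDGF genes, PDGFA had a log2 fold change of −0.40 and PDGFD one of −0.06. TGFA, an EGFR ligand, had 92, 131 and 41 counts in WT and 659, 702 and 513 counts in KO cells, and rose by a log2 fold change of 2.82 (adjusted p = 3.29e-22 by edgeR). EGFR itself was lower in the same libraries. FGF1 had 22, 15 and 5 counts in WT and 667, 708 and 470 counts in KO cells, with a log2 fold change of 5.43. FGF2 moved the other way, with 21.7 ± 0.344 CPM for WT and 2.59 ± 0.234 CPM for KO (SD, n = 3), with a log2 fold change of −3.06.

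HGF, the ligand of MET, was the ligand with by far the most counts, at 1216 ± 10.4 CPM in WT and 1181 ± 85.5 CPM in KO cells (SD, n = 3). HGF did not pass the test (adjusted p = 0.490 by edgeR), and MET had at most 2 counts in any library. MST1, the ligand of MST1R, rose by a log2 fold change of 1.97. ANGPT2, the ligand of TEK, had 289, 276 and 125 counts in WT and 1, 0 and 1 counts in KO cells, a pooled ratio of 349 with a 95% exact interval of 96.3 to 2889. KITLG, the KIT ligand, had 14, 23 and 6 counts in WT and no count in any KO library, which put it at least 3.60-fold lower in KO cells with the floor at 3 counts. In neither case was the receptor itself present above a few counts. After thinning, the counts of KITLG were too low for the low-count filter, so it was not tested there. NTF4, a ligand of NTRK2, fell by 1.27 on the log2 scale but was not called when tested against the fold threshold. NGFR, the low-affinity neurotrophin receptor, had 6, 7 and 0 counts in WT and 12, 16 and 12 counts in KO cells (log2 fold change 1.58, adjusted p = 0.00225 by edgeR). NGFR passed the low-count filter through the KO libraries only and was not called when tested against the fold threshold. It was also not called after thinning, where 74 partner genes were tested in place of 83.

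The ephrin EFNB2, the ligand of EPHB4 and EPHB1, had 1, 0 and 0 counts in the WT libraries and 80, 104 and 68 counts in the KO libraries. It was thus almost absent in WT and counted in every KO library. The KO to WT ratio of the pooled counts was 249 with a 95% exact interval of 44.3 to 9874. The A-type ephrins EFNA2 and EFNA3 fell by 1.19 and 1.14 on the log2 scale, and the value of EFNA3 was −0.997 without KO replicate 1. EFNA2 was not called after thinning, and neither was called when tested against the fold threshold. Syndecans present growth factors on heparan sulfate chains, and 3 of them were down-regulated, when 7.73% of all tested genes were. SDC2 had a log2 fold change of −3.24, SDC1 one of −1.43 and SDC4 one of −1.15. SDC4 was not called when tested against the fold threshold. The other syndecan, SDC3, was higher in every KO library (0.44, adjusted p = 1.28e-08 by edgeR) but did not reach the fold threshold.

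Among adaptors and proximal signalling genes, SHC1, which links receptors to RAS, rose by a log2 fold change of 1.25 (698 ± 21.9 to 1655 ± 62.7 CPM, SD, n = 3). YES1, a SRC family kinase, rose by 1.66 and FYN, a relative, fell by 1.26 on the log2 scale. GRB14, which binds the insulin receptor and FGFR1, had 542, 602 and 229 counts in WT and 4, 2 and 2 counts in KO cells, with a log2 fold change of −7.38. PLCG2, a phospholipase C gamma, had one of −1.33. Of the genes of receptor down-regulation, LRIG1, which promotes the degradation of EGF receptors, and its relative LRIG3 rose by 3.22 and 4.43 on the log2 scale, and CBLB, a ubiquitin ligase, by 1.04 (0.997 without KO replicate 3). ERRFI1, an inhibitor of the EGF receptors, fell by 1.74, and the phosphatase PTPRF fell by 2.98. SOCS2 and SOCS3, feedback inhibitors of cytokine signalling, fell by 5.58 and 5.30 on the log2 scale. LRIG1, LRIG3 and SOCS3 did not have 10 counts in every library, so the size of their changes rests on low counts. Members of this list thus changed in both directions. Of the 28 called genes, 4 (CBLB, EFNA2, EFNA3 and SDC4) were named beyond the 24 with the largest change after their values were seen.

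**Figure D3:**
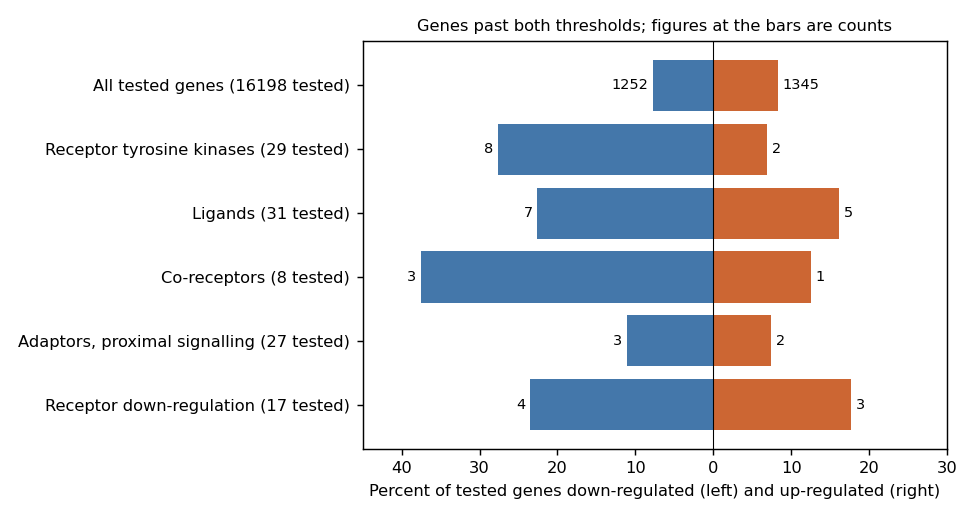
Percent of tested genes down-regulated (bars to the left) and up-regulated (bars to the right) among all tested genes, the receptor tyrosine kinases and the 4 lists of their partners, with the number of genes at each bar. The receptors have 8 genes to the left and 2 to the right, and each of the lists drawn has calls in both directions.

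**Figure D4:**
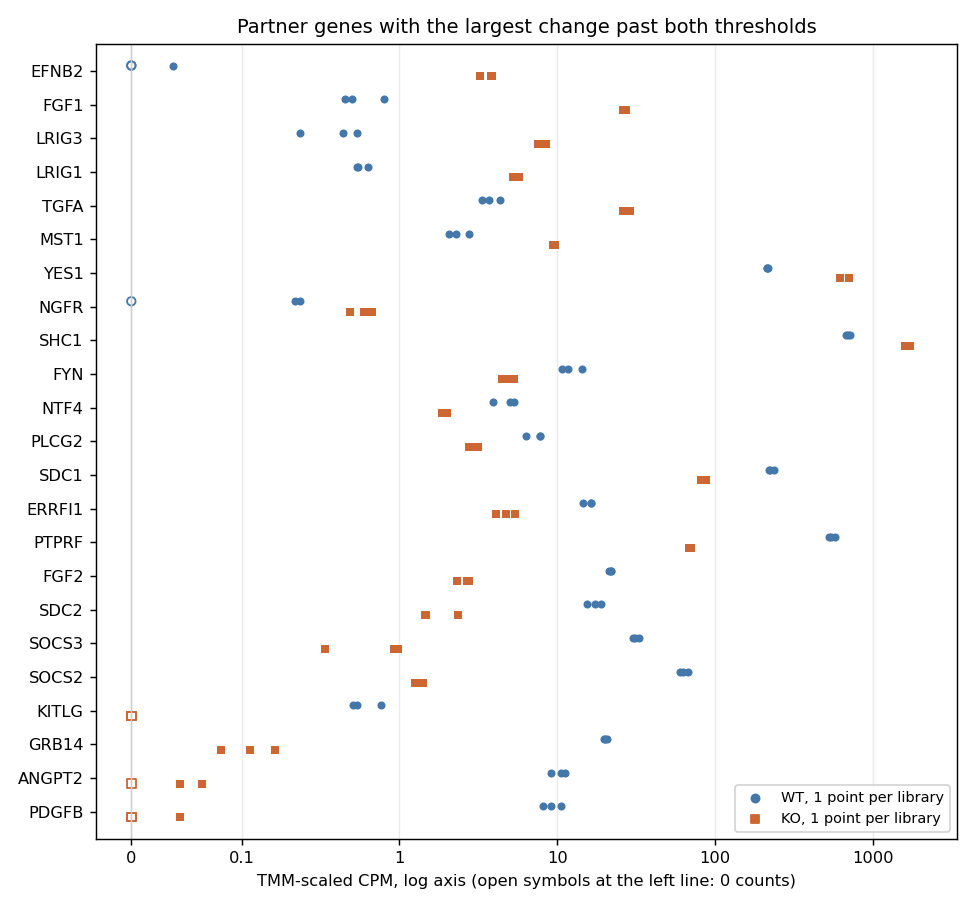
Level in each library of 23 of the 24 ligand, co-receptor, adaptor and down-regulation genes with the largest change past both thresholds, in TMM-scaled CPM on a log axis, with WT libraries as circles, KO libraries as squares and open symbols at the left line for 0 counts. FGF1 and EFNB2 lie far higher in the 3 KO libraries, and PDGFB, ANGPT2 and GRB14 far lower.

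The position of the called members was also examined. They lie on 9 chromosomes, and the median log2 fold change of all tested genes on these chromosomes ranged from −0.10 to 0.27. The highest medians were 0.27 on chromosome 5, which holds PDGFRB, and 0.25 on chromosome 3, which holds EPHB1. Of the 20 nearest tested neighbours of the 10 called members, 2 were called, when 16.0% of all tested genes were called in either direction. Both were down-regulated and beside a down-regulated member. These were CPS1, 697 kb from ERBB4, with a log2 fold change of −2.80, and FAM131C, 50.7 kb from EPHA2, with one of −2.01. The other 18 neighbours were not called. PAN3 lies 5.01 kb from FLT1 and had a log2 fold change of 0.55 opposite to that of FLT1. CEP63 and PPP2R3A, on either side of EPHB1, had log2 fold changes of 0.57 and 0.49, on a chromosome with a median of 0.25.

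Gene length was compared because CDK12 is known for its role at long genes. Across the 29 tested members the Spearman correlation of gene span with the log2 fold change was −0.12, and it was −0.06 over 15989 annotated genes, in both cases a description across genes that share the same libraries. The 8 down-regulated members had a median span of 124 kb (31.7 to 1163 kb), the 19 members not called one of 55.4 kb (10.3 to 427 kb), and EPHA1 and EPHB1 spanned 18.6 and 465 kb.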

How the data were processed

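RNA was sequenced from 3 A2780 WT and 3 A2780 CDK12 KO libraries (directional kit, 75-base single-end reads). The authors deposited raw counts per Ensembl gene, made with FastQC, STAR on GRCh38 and HTSeq-Count. Versions, annotation release and strand setting of the counting are not given in the sources used here, so reads of genes overlapping on opposite strands may not be separable. All count columns were mapped to a sample (0 left out).

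Counts were tested with edgeR 4.0.16 in R 4.3.3 (filterByExpr, TMM, quasi-likelihood test, two-sided, Benjamini-Hochberg adjustment over 16198 genes). The script was tested on simulated data. An exact permutation test was also run on single genes, but it cannot go below p = 0.1 with 3 against 3. No call and no printed p-value rests on it. Genes were matched to GENCODE release 44. Promoter sequences came from RefSeq (GRCh38.p14). Ratios of pooled counts carry 95% exact binomial intervals. A floor was 3 counts per library, and 3 counts in the smallest library were 0.270 CPM.

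The text names every member, the called genes of the partner lists with the largest change (at most 24) and the nearest tested neighbours of called members. Members and lists were chosen with earlier results of these data known. 1 gene of these lists is counted in the totals but not reported here. Alternatives were RLE and upper-quartile scaling, voom in limma 3.58.1, DESeq2 1.42.0, other filters and thresholds, thinning and leaving out each library.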

Additional observations from a re-analysis of the deposited data

How the results depend on the processing

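No paired analysis was made because the labels name no pairs of WT and KO libraries. The library numbers run on from 1 to 6 across both groups. RLE and upper-quartile scaling, voom, DESeq2, an adjusted p under 0.01, thinning to the smallest total and leaving out each library all gave the same 2 up-regulated and 8 down-regulated members. Of 370 single-member values, 357 kept direction and call (adjusted p and fold together). By the adjusted p alone, EPHB4 was above 0.05 under DESeq2, without a filter and without any single library. FLT4 was under 0.05 without WT replicate 1 and without KO replicate 2. ROR2 was under 0.05 without WT replicate 1 and after thinning. With at least 10 counts in every library, 1 member was up-regulated (EPHB1 was not tested), as were 568 of all genes and 5 partner genes, and 684 of all genes and 11 partner genes were down-regulated. By the adjusted p alone the counts were 5 and 15 members, 5165 and 5188 genes, and 24 and 36 partner genes. Tested against the fold threshold, 756 genes rose and 931 fell, with 2 and 7 members (without ROR1) and 8 and 13 partner genes. Without a filter EPHA3 was added to the down-regulated members (9). In all, 13 values reversed, all of members that were not called. ERBB3 became 0.0099 with upper-quartile scaling, 0.0045 with the count minimum and 0.0070 after thinning, and ranged from −0.083 to 0.0095 without single libraries. FGFR4 became 0.014 with upper-quartile scaling and 0.0090 with the count minimum, and ranged from −0.11 to 0.030. EPHB2 became 0.24 after thinning and ranged from −0.11 to 0.014. The cause was not tested. Leaving out single libraries gave 1377 to 1502 up-regulated and 1269 to 1369 down-regulated genes, and 10 to 13 and 16 to 17 partner genes. The fold of CBLB (0.997 without KO replicate 3) and EFNA3 (−0.997 without KO replicate 1) then fell short of the fold threshold.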

Other observations

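Further receptors and receptor-like kinases outside the members were examined after the data were seen. EPHA8 was at 10.6 ± 1.26 CPM in WT and 5.99 ± 0.665 CPM in KO cells (SD, n = 3), with every KO library lower and a log2 fold change of −0.84 (adjusted p = 6.07e-08 by edgeR). EPHA10 was at 1.73 ± 0.173 and 3.21 ± 0.258 CPM, with every KO library higher and a log2 fold change of 0.84 (adjusted p = 7.40e-05 by edgeR). Neither reached the fold threshold. LMTK3 had a log2 fold change of −0.69, AATK one of 0.40 and LMTK2 one of −0.11 (adjusted p = 0.139 by edgeR). EPHA6 did not pass the low-count filter and had at most 1 count in a library.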
